A study of Mus musculus with 321 samples.

Results

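The Hox genes encode homeodomain transcription factors, and 38 of them were examined here, 10 Hoxa, 10 Hoxb, 9 Hoxc and 9 Hoxd genes, out of 21887 protein-coding genes in the gene table. They were chosen by family membership and not by any measured value. The series asks how the transcription factor Tcf-1, which the gene Tcf7 encodes, relates to open and to repressed chromatin in the mouse. Sorted CD4+CD8+ double-positive (DP) thymocytes were profiled by ATAC-seq, an assay of open chromatin, in 2 libraries with the genotype TCF-1-/- deltaVII (KO) and 2 of the strain written as C56BL/6 (WT). ATAC-seq was also made from NIH3T3, an established mouse embryonic fibroblast line from NIH/Swiss stock that is not of the T lineage, used at passages 8 to 12. Of its libraries, 4 came from cells given Tcf-1 by a retrovirus (Tcf-1 RV) and 4 from cells given the empty retrovirus (Empty RV). ChIP-seq of NIH3T3 cells gave H3K27me3 and H3K9me3 in 2 libraries each, whose titles name no virus, and 1 pooled list of Tcf-1 binding summits. The labels do not say whether replicates were separate animals or cultures, so each p-value below measures only the spread between these libraries. They give no age for the mice, and in these bulk samples fewer cells with an open site and less open chromatin in each cell cannot be told apart.

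Hox genes lie in clusters in which gene order follows the position along the body axis where each gene acts, with low paralog numbers at the head end and high numbers towards the tail and the limb tips. In most differentiated cells the parts of a cluster that are not used are held silent by Polycomb complexes, which place H3K27me3 over long stretches of chromatin, while H3K9me3 marks heterochromatin of another kind. Fibroblasts are known to keep a positional record of where in the body they arose as a pattern of active and Polycomb-covered Hox genes. Tcf-1 is a high mobility group factor of T cell development that binds a short DNA motif and acts in the Wnt pathway, and Wnt signalling helps to switch on Hox genes along the axis of the embryo.

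H3K27me3 lay over nearly all of the Hoxb and Hoxc clusters in NIH3T3 fibroblasts, with 92.6% and 99.1% of their length in islands of both replicates, and over parts of the tail ends of Hoxa and Hoxd. The head-end and central genes of Hoxa and Hoxd were free of it in both replicates, except Hoxd1, which replicate 1 alone covered in part. A gene was counted as covered where at least 50% of its body lay in islands that the authors had called in both replicates. By this count 24 of 38 Hox genes, or 63.2%, were covered, against 11.2% of all protein-coding genes. The count is a description of a known family of Polycomb targets, with neighbouring genes sharing single islands, and carries no test. Of the 38 genes, 19 lay fully in islands of both replicates and 11 had no part in islands shared by both. Hoxd1, among the 11, was covered in part in replicate 1 alone.

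All 10 Hoxb genes and all 9 Hoxc genes were covered. In Hoxc, replicate 1 had 1 island of 197.6 kb, chr15:102894401-103091999, that ran past every gene from Hoxc13, a hair follicle gene, to Hoxc4. It was the longest of the 46370 islands of that library and held 11281 ChIP reads, against 6523 control reads, a deposited ratio of 3.64 after the authors' scaling. In replicate 2 the same stretch was called as islands of 118.6 and 58.2 kb with ratios of 3.84 and 3.3. The break between them fell at the low-coordinate end of Hoxc5, which was therefore 100% covered in replicate 1 and 94.4% in replicate 2. In Hoxb the main island spanned 88.6 kb in replicate 1, from Hoxb9 into Hoxb3, with a ratio of 4.45. In replicate 2 it spanned 101.2 kb and reached Hoxb2, with a ratio of 4.47. The median ratio of all H3K27me3 islands was 2.02 in replicate 1 and 2.03 in replicate 2. Only 0.17% of the islands of replicate 1 and 0.231% of those of replicate 2 had a ratio as high as the main Hoxb island. Hoxb13, a prostate and tail bud gene that stands apart from the rest of its cluster, lay in an island of its own with ratios of 4.18 and 4.64.

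**Figure D1:**
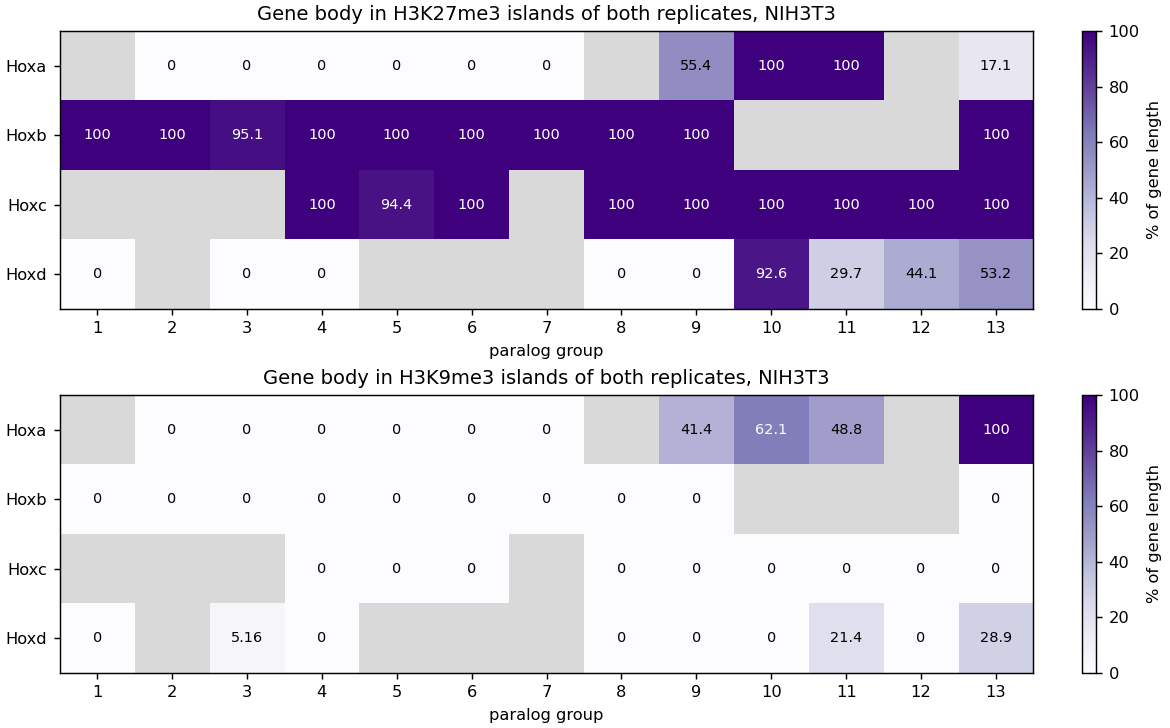
Share of each Hox gene body that lay in H3K27me3 (upper) and H3K9me3 (lower) islands of both NIH3T3 replicates, in percent of gene length, by cluster (rows) and paralog group (columns). Grey cells hold no analysed gene. Hoxb and Hoxc stand between 94.4% and 100% for H3K27me3 in every gene, whereas Hoxa is above 0 from group 9 and Hoxd from group 10 on.

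The Hoxa cluster changed from uncovered to covered between Hoxa7 and Hoxa9. Hoxa2, a hindbrain patterning gene, and Hoxa3, Hoxa4, Hoxa5, Hoxa6 and Hoxa7 had no H3K27me3 island in either replicate. Hoxa9, a gene of blood stem cells and leukaemia, was 97.6% covered in replicate 1 and 55.4% in replicate 2. Hoxa10 and Hoxa11, genes of the uterus and the limb, were fully covered in both. The island of replicate 1 began at chr6:52223201, inside Hoxa9, and ran for 33.6 kb with 2161 ChIP reads and a ratio of 3.31. Coverage crossed 50% a second time between Hoxa11 and Hoxa13, the gene of the limb tip, which was 17.1% and 27% covered in the replicates.

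The Hoxd cluster had its H3K27me3 over Hoxd10 and, in short islands, over parts of Hoxd11, Hoxd12 and Hoxd13. Hoxd10, which acts in lumbar motor neurons, was 100% covered in replicate 1 and 92.6% in replicate 2, and its neighbour Hoxd9 was at 0 in both. Hoxd13, a digit gene, was just inside the threshold at 53.2% in islands of both replicates. Hoxd12, at 44.1%, was just outside it, and Hoxd11 was at 29.7%. Hoxd8, Hoxd3 and Hoxd4 had no island. Hoxd1, at the head end of the cluster, was 53.7% covered in replicate 1 and not at all in replicate 2, so the replicates disagreed there.

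H3K9me3 was rare over Hox genes and sat mostly at the tail end of Hoxa and Hoxd. Of 38 genes 2, or 5.26%, were covered in both replicates, against 4.93% of all genes, a share near the background. Hoxa13 was 100% covered in both replicates, in islands of 10.0 and 8.0 kb with ratios of 3.38 and 3.9. Hoxa10 was 95.3% and 66.9% covered and was the 1 Hox gene covered by both marks, or 2.63% of the family, against 0.215% of all genes. The islands over Hoxa10 had ratios of 1.63 in replicate 1 and 1.86 and 1.66 in replicate 2, below the list medians of 2.14 and 2.09. When only islands with a ratio of at least 2 were kept, Hoxa13 was the 1 Hox gene left with H3K9me3 over 50% of its body. Hoxa11 was 48.8% and 100% covered and Hoxa9 41.4% in both, so H3K9me3 and H3K27me3 were called over the same stretch of Hoxa from Hoxa9 to Hoxa11. In Hoxd, short islands lay over the start of Hoxd13, with ratios of 5.13 and 5.37, and over Hoxd11, with ratios of 2.44 and 4.26. Hoxa3, in replicate 1 alone, and Hoxd3 were covered over 16.4% and 5.16% of their length. The islands that reached Hoxd3 spanned 10.4 and 7.2 kb and lay mostly past its high-coordinate end. The remaining 30 Hox genes had no H3K9me3 island in either replicate, among them all of Hoxb and Hoxc. Between Hoxb13 and Hoxb9, short islands of both replicates that touched no Hox gene made up 2.53% of the length of the Hoxb cluster.

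The open sites of NIH3T3 were most numerous in Hoxa and fewest in Hoxb. Within 5 kb of a Hox gene, the peaks of the 8 libraries merged into 36 regions, of which 18 were in Hoxa, 3 in Hoxb, 9 in Hoxc and 6 in Hoxd. All 12 regions of Hoxb and Hoxc and 3 of those of Hoxa and Hoxd lay in H3K27me3 islands of both replicates. The 24 covered genes had a median of 0.188 peaks per library within 5 kb, and 15 of them, or 62.5%, had a peak in at least 1 library. The 14 other Hox genes had a median of 1.56 peaks, against 1.12 for all protein-coding genes, and 9 of them, or 64.3%, had a peak, against 72.8% of all genes. The share of genes with any peak was thus alike in both sets, and the number of peaks per gene was lower in the covered one, a description with no test. Windows of neighbouring genes overlap, and Hoxa3 is annotated over 44009 bp that include Hoxa4, Hoxa5 and Hoxa6, so 1 peak can count for several genes.

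**Figure D2:**
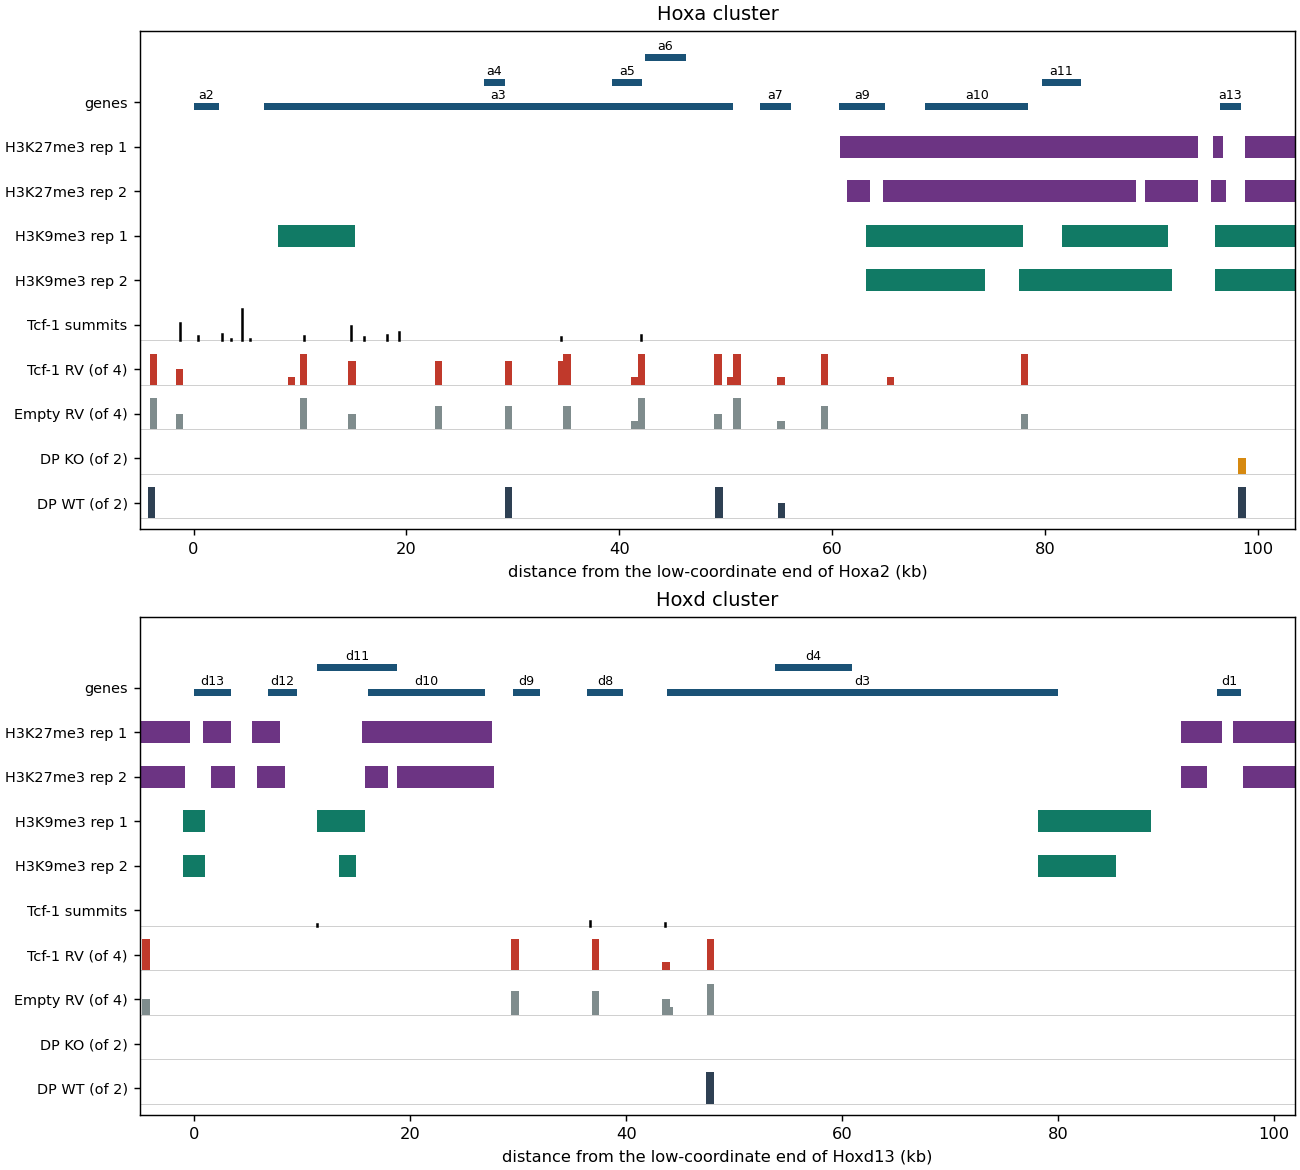
Maps of the Hoxa (upper) and Hoxd (lower) clusters against distance in kb from the low-coordinate end of the first gene, with gene bodies, H3K27me3 and H3K9me3 islands of each NIH3T3 replicate and Tcf-1 summits, whose height is proportional to their score. Bars in the last 4 rows stand for merged ATAC-seq regions, and their height is the number of libraries with a peak there. In Hoxa the H3K27me3 islands begin at Hoxa9, while 16 of the 18 NIH3T3 regions and all 16 summits lie outside them.

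No NIH3T3 library had a peak within 5 kb of 14 Hox genes, which were Hoxa13, Hoxb1, Hoxb2, Hoxb3, Hoxb4, Hoxb5, Hoxb13, Hoxc10, Hoxc12, Hoxc13, Hoxd1, Hoxd4, Hoxd11 and Hoxd12. Of these, 9 were covered by H3K27me3 and Hoxa13 by H3K9me3, whereas Hoxd1, Hoxd4, Hoxd11 and Hoxd12 did not reach 50% of either mark in both replicates. The most constant sites were 5 regions with a peak in all 8 libraries. They lay 3297 bp from Hoxa2 (chr6:52158199-52159120), inside Hoxa3 (chr6:52172556-52172997), at the start of Hoxa5 (chr6:52204201-52204776), beside the start of Hoxa3 (chr6:52213268-52213683) and inside Hoxd3 (chr2:74715842-74716252).

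The comparison of Tcf-1 RV with Empty RV asks whether Tcf-1 opens sites in cells that normally lack it. Around the 38 Hox genes no region was called gained, meaning called in each of the 4 Tcf-1 RV and in none of the 4 Empty RV libraries, and none was called lost. Over all 77882 NIH3T3 regions the same rules called 1.08% gained and 0.11% lost. These are the patterns whose two-sided Fisher exact p is under 0.05 with 4 libraries in each group. Of the 36 Hox regions, 19 were held by more Tcf-1 RV than Empty RV libraries, 5 by fewer and 12 by equal numbers. Among the 36, 8 were seen in no Empty RV library. These counts are not set against all NIH3T3 regions, and the lists differ in length, so they are a description with no test.

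The number of peaks within 5 kb of any Hox gene was 21, 22, 20 and 34 in Tcf-1 RV replicates 1 to 4, against 6, 15, 24 and 28 in Empty RV replicates 1 to 4. The groups overlapped, and the lowest value belonged to the Empty RV library with the shortest list, which held 22778 peaks. The means were 24.2 ± 6.55 in Tcf-1 RV and 18.2 ± 9.81 in Empty RV (SD, n = 4 each), a difference of 6.0, for which the exact permutation test gave a two-sided p of 0.4. Because the lists ran from 36583 to 62639 peaks in Tcf-1 RV and from 22778 to 58026 in Empty RV, the count was also set against list length. Per 10000 peaks of the list there were 4.41, 5.05, 5.47 and 5.43 Hox peaks in Tcf-1 RV, against 2.63, 4.34, 5.13 and 4.83 in Empty RV. The difference in these means was 0.86 with an exact permutation p of 0.2. After adjustment over 8 such comparisons both p-values were 0.61 by Benjamini-Hochberg.

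Single libraries decided much of this difference. Without Empty RV replicate 1 it was 1.92 peaks, without Tcf-1 RV replicate 4 it was 2.75 and without Empty RV replicate 4 it was 9.25. Per 10000 peaks it was 0.328 without Empty RV replicate 1. With every list limited to the same number of its widest peaks it was 1.0 peaks (exact permutation p = 0.657), or 0.439 per 10000. The names of the deposited files tag replicates 1 and 2 of both groups with day 2 and replicates 3 and 4 with day 4. The difference was 11 peaks between the libraries tagged day 2 and 1.0 between those tagged day 4, and 2 against 2 libraries cannot give a permutation p below 0.333. Paired by replicate number, Tcf-1 RV was higher by 15, 7 and 6 peaks in pairs 1, 2 and 4 and lower in pair 3, with a difference of -4.0. Per 10000 peaks Tcf-1 RV was higher in 4 of 4 pairs, and the exact sign-flip test over pairs gave a two-sided p of 0.125, the smallest that 4 pairs allow.

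Each cluster by itself showed the same overlap of groups. Hoxa had 12, 12, 12 and 19 peaks in Tcf-1 RV, against 5, 9, 13 and 14 in Empty RV (difference of means 3.5, exact permutation p = 0.314). The Hoxa difference was 1.75 without Tcf-1 RV replicate 4, also 1.75 without Empty RV replicate 1, and 1.0 with the widest peaks only. Hoxb had 1, 0, 0 and 3, against 0, 0, 1 and 1, and Hoxc had 4, 5, 3 and 7, against 0, 3, 4 and 6. Hoxd had 4, 5, 5 and 5 in Tcf-1 RV, against 1, 3, 6 and 7 in Empty RV, so its Tcf-1 RV libraries lay close together and inside the range of Empty RV. The exact permutation p was 0.886 for Hoxb, 0.457 for Hoxc and 0.886 for Hoxd.

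**Figure D3:**
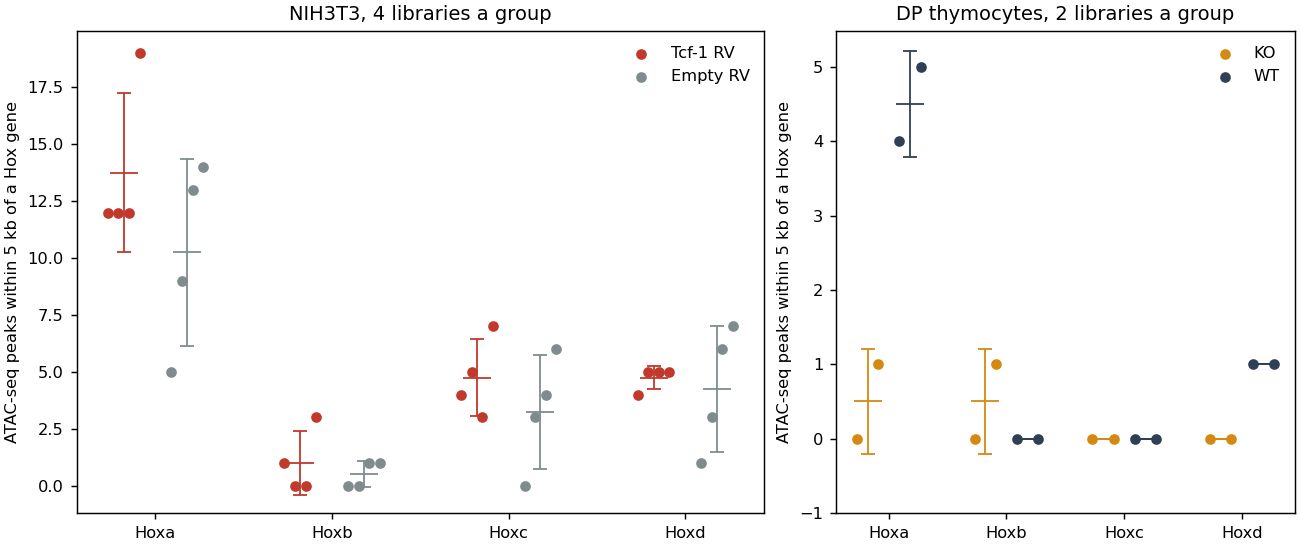
ATAC-seq peaks within 5 kb of a Hox gene per library, by cluster, in NIH3T3 (left, Tcf-1 RV beside Empty RV) and DP thymocytes (right, KO beside WT). Points are libraries, horizontal strokes are means and bars are ± 1 SD. The NIH3T3 groups overlap in all 4 clusters, and Hoxb stays at 3 peaks or fewer in every library.

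Gene by gene, 24 Hox genes had a peak in some NIH3T3 library and could be tested. None of the 24 had more peaks in every Tcf-1 RV than in any Empty RV library, against 0.728% of the 15933 genes tested, and none had fewer, against 0.0502%. By the exact two-sided permutation test, no Hox gene had an unadjusted p under 0.05, and the smallest was 0.143. No gene of the whole table passed after Benjamini-Hochberg adjustment over all genes tested. The mean was higher in Tcf-1 RV for 19 Hox genes, lower for 3 and equal for 2. This split is not set against all genes tested, lists differ in length and neighbouring genes share peaks. It is therefore a description with no test.

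Hoxa3, which the thymus and parathyroid need to form, had the most peaks of any Hox gene, with 8, 8, 7 and 13 in Tcf-1 RV, against 3, 6, 8 and 10 in Empty RV (exact permutation p = 0.4). Its groups overlapped, and the highest value of each belonged to replicate 4. Hoxa5, a gene of lung and neck patterning, had 3, 3, 2 and 4 peaks in Tcf-1 RV, against 1, 2, 2 and 3 in Empty RV (exact permutation p = 0.286). Hoxa6 and Hoxa7, which pattern the trunk, had 3, 3, 3 and 5 peaks each in Tcf-1 RV. In Empty RV, Hoxa6 had 2, 2, 3 and 4 and Hoxa7 had 1, 2, 3 and 4. Replicate 3 was equal between the groups at both genes, and in the other replicates Tcf-1 RV was the higher. Hoxa2 had 2, 2, 3 and 3 peaks in Tcf-1 RV, against 2, 2, 3 and 2 in Empty RV, and differed between the groups in 1 library. Hoxa4 had 1, 2, 1 and 2 peaks in Tcf-1 RV, against 0, 2, 2 and 2 in Empty RV, with equal means of 1.5.

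In Hoxd, peaks were counted at genes free of H3K27me3 and at covered ones. Hoxd8 had 1, 2, 2 and 2 peaks in Tcf-1 RV, against 0, 1, 3 and 4 in Empty RV. Hoxd9, a gene of the limb and spine, had 1, 2, 2 and 2, against 0, 2, 2 and 2. Hoxd3, which shapes the first neck vertebrae, had 1, 1, 1 and 2 in Tcf-1 RV, against 1, 1, 2 and 3 in Empty RV. Hoxd8 and Hoxd3 were 2 of the 3 genes with a lower mean in Tcf-1 RV, and Hoxc8 was the other. Hoxd10 had 1 peak in each Tcf-1 RV library, against 0, 1, 1 and 1 in Empty RV, and that peak lay at Hoxd9, outside its H3K27me3 island. Hoxd13 had 1 peak in each Tcf-1 RV library, against 0, 0, 1 and 1 in Empty RV, at chr2:74663510-74664034 within H3K27me3. That region lay 4191 bp outside Hoxd13, nearer to the neighbouring gene Evx2, which had the same counts.

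Hoxc6, a gene of the thoracic level, was the most open of the H3K27me3-covered genes, with 3, 3, 2 and 4 peaks in Tcf-1 RV, against 0, 3, 3 and 4 in Empty RV (exact permutation p = 0.886). Both regions chr15:102999239-102999857 and chr15:103002194-103002545 inside it were called in 4 of 4 Tcf-1 RV libraries and in Empty RV replicates 2, 3 and 4. Hoxc5 had 0, 1, 0 and 0 peaks in Tcf-1 RV, against none in Empty RV, and Hoxc4 had 0, 2, 1 and 1, against 0, 0, 1 and 1. The remaining tested Hox genes averaged between 0.125 and 1.25 peaks per library.

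**Figure D4:**
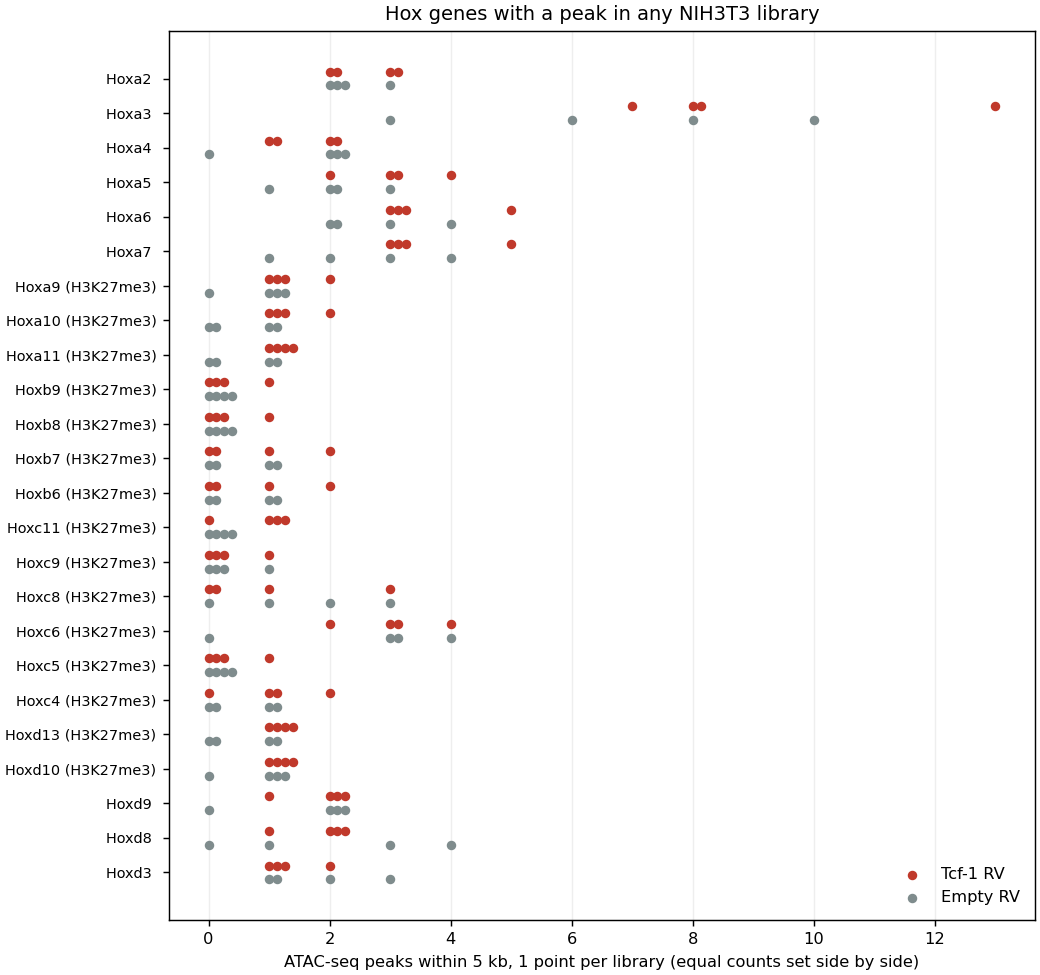
ATAC-seq peaks within 5 kb of each of the 24 Hox genes that had a peak in any NIH3T3 library, with 1 point per library and Tcf-1 RV above Empty RV. Genes at least 50% in H3K27me3 islands are marked. Hoxa3 reaches 13 peaks in Tcf-1 RV and 10 in Empty RV, and the groups overlap or touch in every gene.

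The regions nearest to the rule for a gain were a pair held by 3 Tcf-1 RV libraries and absent from the Empty RV lists. At chr6:52196896-52197188, between Hoxa4 and Hoxa5 and inside the annotated Hoxa3, replicates 1, 2 and 4 of Tcf-1 RV had a peak that enclosed a Tcf-1 summit of score 9.69. At chr15:102960558-102960901, 3857 bp from Hoxc11, the same replicates had a peak with no summit, inside the long H3K27me3 island. Hoxc11 thus had 1, 1, 0 and 1 peaks in Tcf-1 RV, against none in Empty RV, and its exact permutation p of 0.143 was the smallest of the family. Without Tcf-1 RV replicate 3 both regions met the rule, and Hoxc11 had an unadjusted exact permutation p of 0.0286, the smallest that 3 against 4 libraries can give. Replicate 3 was the only Tcf-1 RV library without these peaks. Leaving it out fixed this outcome in advance, so no conclusion is drawn from it. A single gained region lay farther out, 36.7 kb from Hoxb1 at chr11:96404923-96405309, with a Tcf-1 summit of score 164.6 inside H3K27me3 islands. It was looked for after the values within 5 kb had been seen.

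Tcf-1 summits in Tcf-1 RV fibroblasts fell mostly on the head end of Hoxa. The name of the deposited summit list tags it with day 2, whereas the ATAC-seq libraries set beside it carry either day tag. Of 38 Hox genes 13, or 34.2%, had a summit within 5 kb, against 42% of all genes, so the family as a whole was not richer in summits than other genes. Within 5 kb there were 22 summits, of which 16 were in Hoxa, 3 in Hoxc, 3 in Hoxd and 0 in Hoxb. Their scores, whose scale the sources used here do not give, had a median of 13.9, against 17 for the whole list of 40562 summits. Only 7 of the 22 were above that median, and with summits at or above it alone 5 Hox genes kept one.

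Hoxa3 had 13 summits within 5 kb, a number that 1.15% of all genes reached, and Hoxa2 had 8, which 3.01% reached. Both share the strongest summit of the clusters, at chr6:52166947 between them, with a score of 97.7 that 4.1% of the list matched or exceeded. No NIH3T3 library had a peak there. Next came a summit of score 54.3 at chr6:52161177, 1240 bp from Hoxa2. Replicates 3 and 4 of both groups, which are tagged day 4, had a peak there. A summit of score 44.8 at chr6:52177219, inside Hoxa3, had a peak in 3 Tcf-1 RV and 2 Empty RV libraries. Of the 16 Hoxa summits 10 had a peak in no NIH3T3 library, and none of the 16 lay in H3K27me3 or H3K9me3 islands of both replicates. Hoxa5 had 3 summits and Hoxa6 had 1, with the summit of score 18 at chr6:52204434 shared by both and open in all 8 libraries.

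**Figure D5:**
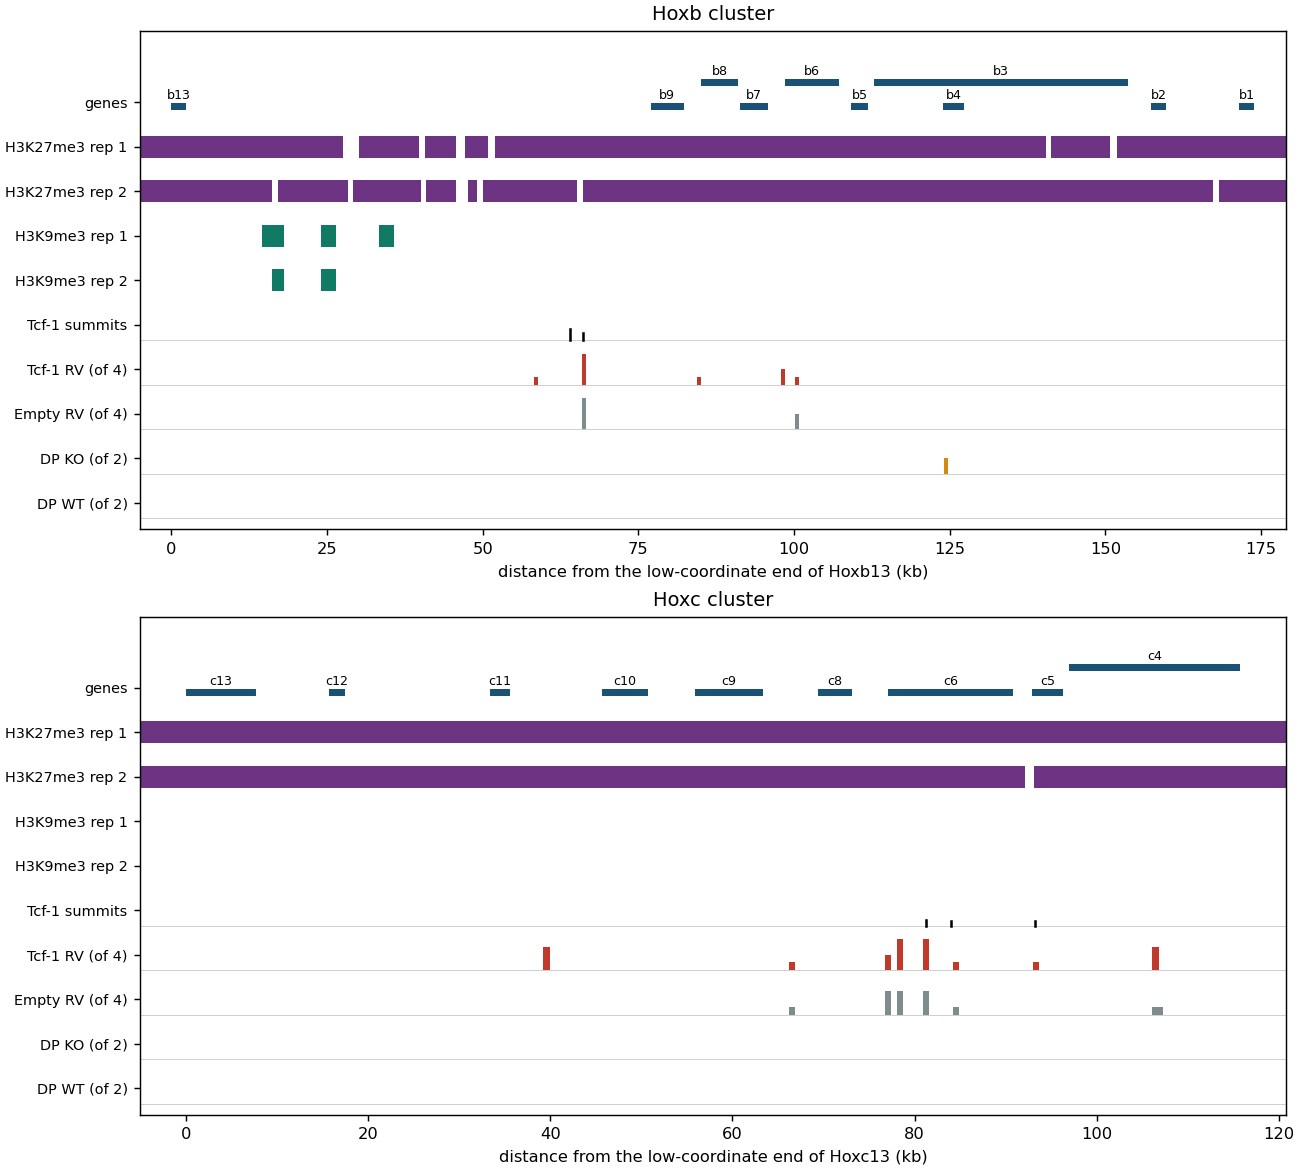
Maps of the Hoxb (upper) and Hoxc (lower) clusters against distance in kb from the low-coordinate end of the first gene, with the same rows as in the maps of Hoxa and Hoxd. H3K27me3 islands run through both clusters almost without a gap in both replicates. The bars of the ATAC-seq rows stand at few places, more of them in Hoxc than in Hoxb.

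In Hoxc the 3 summits lay inside H3K27me3 islands. They fell at chr15:103002328 and chr15:103005176 within Hoxc6 and at chr15:103014392 within Hoxc5, with scores of 19.3, 14.8 and 15.3. The first coincided with the Hoxc6 region open in 4 Tcf-1 RV and 3 Empty RV libraries, and the last with the Hoxc5 peak of Tcf-1 RV replicate 2. Hoxc4 counted the Hoxc5 summit through its window. In Hoxb the nearest summits lay 13076 and 10862 bp from Hoxb9, in the long interval towards Hoxb13, with scores of 34.3 and 22. The second of them sat in the 1 region of that interval with a peak in all 8 libraries, chr11:96260333-96260776, inside H3K27me3. In Hoxd the summits were weak, with scores of 5.5 at Hoxd11, 13.4 at Hoxd8 and 8.61 at Hoxd3, and Hoxd9, Hoxd10 and Hoxd12 counted one of these through their windows.

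The promoter windows of Hoxd8 and Hoxd3 are shown as examples with a Tcf-1 summit and an ATAC-seq region in or beside them. The window of Hoxa5 also had these, with the summit at chr6:52204434 and a region open in all 8 libraries. It held none of the motifs searched below and is not shown. Each window runs from 250 bases before to 50 bases after the gene's start in RefSeq on GRCm38.p6. At least 1 such window was given for 22 of the 38 genes. Hoxd8 lies at chr2:74704365-74704664 on the plus strand, with capitals for 2 copies of the motif CTTTGAT.
Hoxd8: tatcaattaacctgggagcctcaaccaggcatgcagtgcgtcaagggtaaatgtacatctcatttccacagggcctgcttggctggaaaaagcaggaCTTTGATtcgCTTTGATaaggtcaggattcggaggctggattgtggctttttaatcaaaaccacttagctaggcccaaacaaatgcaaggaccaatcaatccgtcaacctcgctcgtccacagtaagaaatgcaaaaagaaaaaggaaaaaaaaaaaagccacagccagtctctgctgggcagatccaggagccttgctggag
Hoxd3 lies at chr2:74711743-74712042 on the plus strand, with capitals for the summit base and 10 bases on each side of it.
Hoxd3: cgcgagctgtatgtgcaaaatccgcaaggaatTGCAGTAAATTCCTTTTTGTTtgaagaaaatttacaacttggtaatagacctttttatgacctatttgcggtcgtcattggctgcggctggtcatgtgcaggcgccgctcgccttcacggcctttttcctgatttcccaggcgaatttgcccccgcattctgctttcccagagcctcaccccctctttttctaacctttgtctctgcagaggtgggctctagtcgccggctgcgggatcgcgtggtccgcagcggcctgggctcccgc

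The motifs searched on both strands were CTTTGAT, the related CTTTGAA, then CTTTGTT and lastly CTTTGTA, of which at most 1 can match at a given start. They are the core letters to which TCF and LEF proteins are known to bind. At least 1 was found in 16.7% of the 24 Hox windows, against 16.9% of all 32851 windows and 21.1% of the 1752 windows that held a Tcf-1 summit. The first copy at Hoxd8 begins at base 98 of the window. Windows with at least 2 matches made up 8.33% of the Hox windows, those of Hoxd8 and Hoxa11, against 1.94% of all windows. The summit near Hoxd8, at chr2:74704834, lay past the end of its window, inside the region chr2:74704658-74706082 that 4 Tcf-1 RV and 3 Empty RV libraries held. The summit at Hoxd3 lay on base 43 of its window, and its region had a peak in 1 Tcf-1 RV and 2 Empty RV libraries. None of the motifs was found in the Hoxd3 window, a statement about these letters alone.

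The comparison of KO with WT thymocytes asks which open sites depend on Tcf-1 in the cells that normally carry it. DP thymocytes had few open Hox sites, and those of WT were mostly not called in KO. The number of peaks within 5 kb of a Hox gene was 0 and 2 in KO, against 5 and 6 in WT, and the groups did not overlap. The means were 1.0 ± 1.41 in KO and 5.5 ± 0.707 in WT (SD, n = 2 each), a difference of -4.5, for which the exact permutation test gave a two-sided p of 0.333, the smallest that 2 against 2 libraries can give. Per 10000 peaks there were 0 and 1.64 in KO, against 2.15 and 1.94 in WT. The KO lists were shorter, with 11171 and 12209 peaks in KO, against 23249 and 30985 in WT.

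Regions called in both WT libraries and in neither KO library were counted as lost. Of the 5 Hox regions held by both WT libraries 4, or 80%, were lost, against 45.7% of all 21952 such regions. KO replicate 1 had no Hox peak, so no Hox region could meet the reverse rule for a gain. When every list was limited to its 11171 widest peaks, no Hox region was lost and KO exceeded WT by 0.5 peaks on average, so the difference was not seen with lists cut to equal length in this way.

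The lost regions lay at chr6:52158321-52158627 near Hoxa2, chr6:52191849-52192183 beside the high-coordinate end of Hoxa4, chr6:52211661-52211920 between Hoxa6 and Hoxa7, and chr2:74715868-74716096 inside Hoxd3. All 4 overlapped open NIH3T3 regions. Those near Hoxa2 and in Hoxd3 were open in all 8 NIH3T3 libraries, the one between Hoxa6 and Hoxa7 in 4 Tcf-1 RV and 2 Empty RV libraries, and the one at Hoxa4 in 3 Tcf-1 RV and 3 Empty RV libraries. None of them held a Tcf-1 summit of the fibroblast list or lay in H3K27me3. Through these regions 6 genes, Hoxa2, Hoxa3, Hoxa4, Hoxa6, Hoxa7 and Hoxd3, had fewer peaks in both KO libraries than in either WT library. That is 66.7% of the 9 Hox genes with a DP peak, against 34.3% of 13719 genes, and the 6 share 4 regions. Hoxa3 had 0 and 0 peaks in KO, against 2 and 3 in WT, and Hoxa7 had 0 and 0 in KO, against 1 and 2 in WT. The other 4 genes had 0 and 0 in KO, against 1 and 1 in WT.

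Hoxa13 was open in thymocytes and not in fibroblasts. Its promoter region chr6:52260746-52261155 had a peak in KO replicate 2 and in both WT libraries, and in no NIH3T3 library, where the gene lay wholly in H3K9me3. Its window at chr6:52260831-52261130 on the minus strand, with a GC content of 81%, is shown with its 45 CpG dinucleotides in capitals. The median over the Hox windows was 14.5 CpG, against 7.0 over all windows.
Hoxa13: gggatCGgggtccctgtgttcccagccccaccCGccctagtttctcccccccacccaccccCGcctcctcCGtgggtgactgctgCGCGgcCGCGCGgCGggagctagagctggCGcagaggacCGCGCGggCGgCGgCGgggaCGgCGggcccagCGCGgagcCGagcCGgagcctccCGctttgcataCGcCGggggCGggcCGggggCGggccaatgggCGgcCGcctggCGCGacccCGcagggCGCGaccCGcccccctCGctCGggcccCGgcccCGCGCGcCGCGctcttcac
No Hoxb or Hoxc gene had a WT peak. KO replicate 2 alone had a peak at chr11:96318635-96318834, inside Hoxb4, a gene of blood stem cells, which also falls within the annotated Hoxb3.

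Markers were read in the same lists. Of 12 DP thymocyte markers, 7 and 11 had a peak within 5 kb in the KO libraries, against 12 in each WT library. Fibroblast markers had a peak at none of 10 in KO, against 2 to 4 in WT, and at 9 of 10 in each Tcf-1 RV and 8 to 9 in Empty RV. B cell markers had a peak at 1 to 2 of 5 in KO, against 3 in WT, myeloid markers at 1 of 5, against 2 to 3, and epithelial markers at 1 of 5, against 0 to 2. These marker counts are not set against the share of all genes with a peak in each library, and the KO lists were shorter than those of WT. The part of other cells in the Hox values was not tested. In NIH3T3, 10 of the 12 DP markers and none of the 10 fibroblast markers were covered by H3K27me3, against 11.2% of all genes.

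The microRNA genes inside the clusters were added after the coverage of the Hox genes had been seen, because their short mature sequences sit within the same islands. The mature 5p sequences are given 5′ to 3′ from RefSeq, with the seed, bases 2 to 8, in capitals. The first pair shares the seed ACCCUGU and differs by U12A, miR-10a first and positions counted from the 5′ end. The second pair shares AGGUAGU and differs by A12C, miR-196a first.
miR-10a-5p: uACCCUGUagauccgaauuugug
miR-10b-5p: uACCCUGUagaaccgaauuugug
miR-196a-5p: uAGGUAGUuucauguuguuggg
miR-196b-5p: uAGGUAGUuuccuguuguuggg
miR-615-5p: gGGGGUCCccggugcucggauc
Mir10a between Hoxb4 and Hoxb5, Mir196a-1 near Hoxb9, Mir196a-2 near Hoxc10, Mir196b near Hoxa10 and Mir615 inside Hoxc5 were all 100% within H3K27me3 islands of both replicates. Mir10b, inside Hoxd3 and Hoxd4, was at 0 in both. Mir10a and Mir10b, which share the seed ACCCUGU, thus lay on opposite sides of the division between covered and uncovered parts of the clusters. The genes with the seed AGGUAGU were all covered. Around Mir196a-1 each of the 8 NIH3T3 libraries had 1 peak within 5 kb, the constant region described above. Mir196b was the 1 microRNA gene also within H3K9me3 islands of both replicates.

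Genes that act with or upon Hox genes were counted in the same way. Over all protein-coding genes, 11.2% were covered by H3K27me3 and 42% had a Tcf-1 summit. Of 19 subunits of Polycomb and Trithorax complexes, which keep Hox genes silent or active, none was covered by H3K27me3 and 11 had a Tcf-1 summit. None of these 19 had more or fewer peaks in every Tcf-1 RV library, against 0.728% and 0.0502% of all genes tested. In both KO libraries 4 of them had fewer peaks, against 34.3% of 13719 genes. In the other direction 1 had more, for which no share over all genes is given. Of 12 TALE and Cdx factors, which bind DNA with Hox proteins or switch on Hox genes, Cdx2 was covered by H3K27me3 and 6 had a summit. Meis2, a cofactor of Hox proteins, had 5, 5, 6 and 6 peaks in Tcf-1 RV, against 3, 3, 4 and 4 in Empty RV. Its groups did not overlap, a pattern that 1 of the 12 factors and 0.728% of all genes tested showed in this direction. The exact permutation p of Meis2 was 0.0286, and 1.0 after Benjamini-Hochberg adjustment over all genes tested. Of 10 measured neighbours of the clusters, Evx1, Evx2, Skap1 and Ttll6 were covered by H3K27me3 and 6 had a summit.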

How the data were processed

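Open chromatin (12 libraries), histone marks (4) and Tcf-1 summits were analysed from 16 of the 321 samples and 1 pooled list. Per the submitters' processing notes the tools were MACS2, Picard, STAR 2.5, Bowtie2 2.2.9, Trim Galore and FastQC. The notes do not tie a tool to a file, and the names of the histone files add SICER, with no version. The ATAC-seq files that the authors deposited hold peak positions with no height. The deposited histone files hold SICER islands with ChIP and control read counts, their scaled ratio (fold), and p-values, all below 0.01 after adjustment. The deposited summit list gives a score of unstated scale. No read depth is given for ATAC-seq, so list length stood for it. Coordinates are mm10, the same build as GRCm38, and gene positions and sequences came from RefSeq tables of GRCm38.p6. The 293 peaks on unplaced sequences were left out.

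Python 3.11.15 with numpy 2.4.6, pandas 2.3.3 and scipy 1.17.1 was used. Peaks sharing at least 1 bp were merged into regions. Peaks, summits and regions were counted within 5 kb of a gene. The test of peak counts was the exact permutation test over libraries, two-sided, with Benjamini-Hochberg adjustment over 8 Hox comparisons or over all genes tested. The smallest p is 0.0286 for 4 against 4 libraries. The routines were tested on simulated data. NIH3T3 replicates of the same number were treated as pairs only in the sign-flip test and the alternative region rule by pairs. The main permutation tests took no account of replicate number or day tag. With group means removed, replicates of the same number correlated over regions at 0.125 to 0.26. Other numbers of the same day tag gave 0.0648 to 0.194, a range that overlaps the first, and other tags gave -0.243 to -0.0895. DP numbers were not treated as pairs (correlation -0.0505). Alternatives were other windows, the widest peaks only, stricter coverage, ratio and score limits, single day tags, pairs, and leaving out each replicate. The members and gene lists were chosen with earlier results of these data known. Values in full were given for Hox genes with a called region, a Tcf-1 summit, a change of H3K27me3 coverage across 50%, or the 10 highest mean numbers of NIH3T3 peaks.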

Additional observations from a re-analysis of the deposited data

Results flagged for a closer look

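In each group of 4 NIH3T3 libraries, the peak counts of the Hox family, of each cluster and of the Hox genes named in the text were screened for a library far from the other 3. The screen is meant to flag about 1 in 20 groups by chance, and 38 groups were looked at, with many peaks shared between them. That rate need not hold here, because many groups hold small counts with tied values, where a difference of 1 peak was flagged. Among Tcf-1 RV libraries, replicate 4 stood apart with 34 Hox peaks, 19 Hoxa peaks, 13 peaks at Hoxa3, 5 each at Hoxa6 and Hoxa7 and 2 at Hoxd3. It also had the longest list, with 62639 peaks. Replicate 1 of Tcf-1 RV stood apart at the low side with 4 Hoxd peaks and 1 peak each at Hoxd8 and Hoxd9, and replicate 2 with 1 peak at Hoxc5, where the other 3 had 0. Among Empty RV libraries, replicate 1 was alone at 0 peaks for Hoxa4, Hoxd9 and Hoxd10 and had the shortest list, and replicate 3 was alone with 3 peaks at Hoxa2. The part of list length in these values was not tested.

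The Hoxd cluster moved in opposite directions under the 2 day tags. Tcf-1 RV minus Empty RV was 2.5 peaks on average in the libraries tagged day 2, higher in both pairs, and -1.5 in those tagged day 4, lower in both pairs. The difference between the tags was not tested.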

How the results depend on the processing

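Under the alternatives 10 recomputed values moved, for a count by over 1.5 times, 6 differences changed sign and 3 fell to 0 (Hoxb with the widest peaks, Hoxc in the day 4 libraries and Hoxd within 1 kb), while the others kept direction and call, some with a much smaller size. Gained NIH3T3 Hox regions numbered 0 as reported, 5 in the day 2 libraries alone, 2 when at least 3 of 4 replicate pairs had to show the gain, and 0 to 2 when each replicate was left out. Hox genes with a permutation p under 0.05 numbered 0 to 1 in that last setting, an alternative added after seeing the data like those per cluster and DP per 10000 peaks. With the replicate block, the sign-flip test over pairs gave an exact p of 0.25 for 6.0 Hox peaks and 0.125, the smallest possible with 4 pairs, for 0.86 per 10000 peaks, and it changed no other call. With the widest peaks only, the NIH3T3 difference was 1.0 Hox peaks and 0.439 per 10000, 0 DP regions were lost, KO minus WT was 0.5 peaks and 0.448 per 10000, and Hoxd was -0.25. Hoxd was -1.5 in the day 4 libraries and -0.583 to 1.42 with each replicate left out, Hoxb -0.167 to 0.833, Hoxa 1.75 to 4.75 and Hoxc 0.417 to 2.42, while all Hox peaks ran from 1.92 to 9.25, or 0.328 to 1.16 per 10000. Gained DP regions were 0 to 1 without a replicate. H3K9me3 covered 7 Hox genes by any overlap, 1 at 90% of the gene and 1 with islands of ratio 2 or more. With summits of at least the median score 5 Hox genes had a summit. The causes of these shifts were not tested.

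ATAC-seq lists give no peak heights, so a site that opened further without crossing the caller's threshold was not detectable. The 2 DP libraries a group cannot reach significance. Histone islands come from 2 libraries and were not compared between groups, and 5 kb windows of neighbouring Hox genes share peaks.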
